A study of Mus musculus with 12 samples.

Results

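Small leucine-rich proteoglycans (SLRPs) are secreted proteins of the extracellular matrix, and the transcripts of 10 of them were followed through the stromal cells of the mouse hind limb joint: decorin (*Dcn*), biglycan (*Bgn*), asporin (*Aspn*), lumican (*Lum*), fibromodulin (*Fmod*), PRELP (*Prelp*), keratocan (*Kera*), osteomodulin (*Omd*), osteoglycin (*Ogn*) and chondroadherin (*Chad*). They were taken by gene symbol from the 27998 genes of the count tables. Live CD45-negative cells, that is cells without the surface marker of blood-derived cells, had been sorted from digested hind limb joints of wild-type male C57BL/6 mice aged 8 to 10 weeks and captured for single-cell RNA sequencing (scRNA-seq). Serum transfer-induced arthritis (STIA), in which antibodies in injected K/BxN mouse serum inflame the joint without an immune response of the recipient's own having started it, was sampled beside untreated rest (day 0) with 3 libraries for each label. The stage called peak spans days 7 to 9, the one called resolving is day 15, and resolved stands for day 22. Each of the 12 libraries pooled the cells of 3 animals, so n counts pools, and a p-value measures the spread between these pools. The joints were digested whole, and cells of tendon, bone and cartilage were captured beside those of the synovium.

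All members share a core of leucine-rich repeats, the curved fold that holds on to collagen fibrils, and many carry chains of chondroitin, dermatan or keratan sulfate. They set the diameter and spacing of collagen fibrils and bind growth factors such as TGF-beta. Decorin, biglycan and asporin form class I of the family. Lumican, fibromodulin, PRELP, keratocan and osteomodulin form class II, osteoglycin belongs to class III, and chondroadherin, which is without such chains in cartilage, to the non-canonical class IV. In joints, fibromodulin is known from tendon and cartilage, osteomodulin from bone, chondroadherin from cartilage, and keratocan, first described in the cornea, from tendon.

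Genes of the family lie in clusters in the genome. On GRCm38, *Dcn* (chr10:97479609-97518143), *Lum* (chr10:97565128-97572703) and *Kera* (chr10:97606879-97613692) followed each other on the plus strand with gaps of 46984 and 34175 bases and no other protein-coding gene between them. *Aspn* (chr13:49544443-49567565), *Omd* (chr13:49582462-49592822) and *Ogn* (chr13:49608046-49624501) stood in the same way 14896 and 15223 bases apart, within the span of *Cenpp* on the opposite strand. *Prelp* (chr1:133910304-133921414, minus strand) and *Fmod* (chr1:134037254-134048277) were 115839 bases apart. *Chad* (chr11:94565047-94569127) overlapped *Acsf2* on the opposite strand, and *Bgn* (chrX:73483602-73495933) stood alone. Neighbours on the chromosome did not all share one pattern across the cells. Pearson's r of levels over classes and libraries was 0.83 for *Dcn* and *Lum*, the highest of all member pairs. It was 0.79 for *Aspn* and *Ogn*, and from 0.55 to 0.63 for the remaining pairs within these groups, *Dcn* and *Kera* or *Aspn* and *Omd* among them.

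The 4 members that differed most between fibroblasts and tendon cells were *Chad*, *Kera*, *Fmod* and *Omd*, and the 250 bases before their starts are shown because of that difference, from the promoter table of RefSeq for GRCm38.p6, which matched 8 of the 10 members (not *Dcn* or *Lum*). The windows, all on the plus strand, were chr11:94564797-94565046 for *Chad*, chr10:97606955-97607204 for *Kera*, chr1:134037004-134037253 for *Fmod* and chr13:49582212-49582461 for *Omd*. The *Kera* window precedes the RefSeq start but lies inside the span of *Kera* given above, which is from GENCODE and starts earlier. It is therefore not upstream of that GENCODE start. Capitals mark matches to 3 motifs searched on both strands: the E-box CANNTG, which factors such as scleraxis bind, the Runx core TGTGGT or TGCGGT, and the TATA box TATAAA. Of 32851 promoters of the same length, 66.2% held the E-box, 18.6% the Runx core and 12.4% the TATA box.
Chad: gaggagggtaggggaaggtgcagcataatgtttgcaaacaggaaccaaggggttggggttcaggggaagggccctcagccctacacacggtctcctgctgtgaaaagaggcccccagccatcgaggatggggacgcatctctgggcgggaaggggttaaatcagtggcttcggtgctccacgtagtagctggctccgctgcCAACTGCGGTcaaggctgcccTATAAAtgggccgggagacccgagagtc
Kera: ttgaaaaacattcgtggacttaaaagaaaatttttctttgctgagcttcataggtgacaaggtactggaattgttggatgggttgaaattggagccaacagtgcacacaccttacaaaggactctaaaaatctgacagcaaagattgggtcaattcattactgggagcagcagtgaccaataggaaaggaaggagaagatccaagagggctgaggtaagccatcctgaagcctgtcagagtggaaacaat
Fmod: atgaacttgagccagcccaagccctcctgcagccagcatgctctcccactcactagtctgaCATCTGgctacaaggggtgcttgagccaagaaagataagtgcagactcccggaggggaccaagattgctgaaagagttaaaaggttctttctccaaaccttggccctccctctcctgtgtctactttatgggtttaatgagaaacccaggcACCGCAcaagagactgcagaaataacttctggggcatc
Omd: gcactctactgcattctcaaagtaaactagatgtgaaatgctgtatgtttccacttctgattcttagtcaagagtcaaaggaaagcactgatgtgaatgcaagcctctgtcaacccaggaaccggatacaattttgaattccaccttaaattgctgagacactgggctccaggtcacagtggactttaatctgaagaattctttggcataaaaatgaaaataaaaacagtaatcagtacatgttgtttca

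In the *Chad* window an E-box began 49 bases before the start and overlapped a Runx core at 45 bases, and a TATA box began at 28 bases. The *Fmod* window held an E-box at 189 bases and a Runx core, read on the minus strand, at 38 bases. Those of *Kera* and *Omd* held none of these letters. A match describes the letters and is no evidence that a factor binds there, and its absence from this window says nothing about the factor.

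Of 21042 deposited cells, 20060 passed the study's limits, with 7468914 to 16566202 unique molecular identifiers (UMIs, tags of single captured RNA molecules) per library and a median of 5232 to 5562 per cell. Clusters were named from marker genes that hold no SLRP, and the SLRP genes were kept out of the clustering. Named classes used here were fibroblast-like (9410 cells, 46.9% of all), tenocyte-like (2747, tendon and ligament cells), osteoblast-like (1362), chondrocyte-like (312), perivascular-like (655) and vascular endothelial-like cells (1776), called by these names from here on without "-like". Cluster 2 (1713 cells, led by *Spon2* and *C1qtnf3*) and cluster 15 (571 cells, led by *Cytl1* and *Clu*) stayed unnamed. Defining markers were present, such as *Tnmd* in 67.7% of tenocytes and 18.3% of other cells and *Bglap* in 91.9% of osteoblasts and 9.59% of other cells, and no barcode was shared between libraries. One fact bears on every comparison of libraries: across fibroblast sums the nearest library of each carried a barcode suffix in the same run of 3 consecutive numbers (1 to 3, 4 to 6, 7 to 9 or 10 to 12) in 12 of 12 cases, whereas in 0 of 12 was it a library of its own stage label. The labels do not say what the suffixes mean, and each run mixes stage labels. Libraries of one label thus stood apart from each other, so a label may not sit on its own library, which was not tested. Stages are given as labelled, and every value by stage depends on that.

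Levels are UMIs per 1000000 UMIs (CPM) of the summed cells of a class in a library, which are not divided by length because a 3′ count marks a molecule. The mean share of SLRP transcripts was higher in tenocytes, osteoblasts and both unnamed clusters than in fibroblasts, a sum that was not tested. The 10 members together made up 50512 ± 6279.5 CPM (SD, n = 12) of tenocyte transcripts, 50155 ± 8908 CPM (SD, n = 11) in cluster 15, 34573 ± 12042 CPM (SD, n = 8) in cluster 2, 32515 ± 4575 CPM (SD, n = 12) in osteoblasts and 22671 ± 4774 CPM (SD, n = 12) in fibroblasts. Chondrocytes held 15328 ± 1944 CPM (SD, n = 8) and vascular endothelial cells 2056 ± 914 CPM (SD, n = 12). With each cell thinned to 2000 UMIs, the median cell had a UMI of 7 of the 10 members in tenocytes, 6 in osteoblasts, 5 in chondrocytes, 4 in fibroblasts and 1 in vascular endothelial cells.

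**Figure D1:**
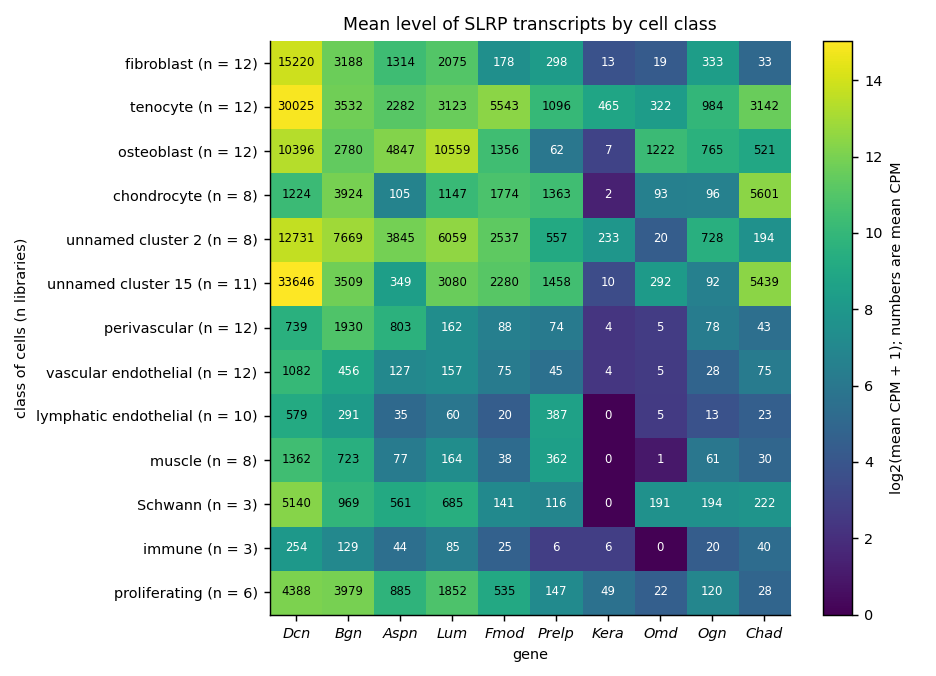
Mean level of each SLRP transcript in each class of cells, with genes on the horizontal axis, classes and their number of libraries on the vertical axis, colour as log2(mean CPM + 1) and the mean CPM printed in each field. *Dcn* is the highest member in fibroblasts (15219.9 CPM) and tenocytes (30025 CPM), while *Chad* peaks in chondrocytes (5601 CPM) and *Omd* in osteoblasts (1222 CPM).

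Among the class I members, *Dcn*, whose protein coats collagen fibrils and limits their growth, was the highest SLRP in fibroblasts. Its lowest, median and highest library values were 7385, 15938 and 22211 CPM in fibroblasts and 22791, 30451 and 38089.9 CPM in tenocytes, with every tenocyte library above the highest fibroblast one. In osteoblasts it lay within 7905 to 13444 CPM, and in chondrocytes within 313 to 3812 CPM. *Dcn* was lower in fibroblasts than in tenocytes on the log2 scale (-1.01 ± 0.31, SE, adjusted p = 0.00541, edgeR quasi-likelihood test with Benjamini-Hochberg adjustment, as for all adjusted p-values of class comparisons) and 3.44 ± 0.41 higher than in chondrocytes (adjusted p = 9.17e-13). Against osteoblasts the difference of 0.64 did not pass the test (adjusted p = 0.0802). Without the libraries suffixed 4 to 9, the difference from tenocytes was -0.69 and no longer passed (adjusted p = 0.198), and that from osteoblasts was 0.99 and did (adjusted p = 0.0398). Of the alternatives, 4 of 27 passed against osteoblasts, thinned cells (0.74) and no filter on low counts (0.69) among them.

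*Bgn*, which is close to decorin in structure and can signal through Toll-like receptors once released, was the member whose mean levels in these 4 classes lay closest together. Its lowest, median and highest values were 1477, 3064 and 5323 CPM in fibroblasts, 2737, 3424 and 4491 CPM in tenocytes, 1859, 2735 and 4075 CPM in osteoblasts and 3079.7, 3549.9 and 5470.0 CPM in chondrocytes, so that the ranges of all 4 classes overlapped. None of these 3 differences from fibroblasts passed the test (log2 -0.27, 0.24 and -0.42, adjusted p = 0.277, 0.332 and 0.0941). Without the libraries suffixed 4 to 6, in which fibroblast *Bgn* was highest, fibroblasts were lower than tenocytes by a log2 value of -0.60 (adjusted p = 0.00447) and than chondrocytes by -0.90 (adjusted p = 1.28e-04). The difference from chondrocytes also passed without the library labelled peak 2 alone (-0.58) or resolved 1 alone (-0.59). Perivascular cells held 1929.7 ± 1268 CPM, their highest SLRP.

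*Aspn*, which binds collagen and TGF-beta, was highest in osteoblasts, at 2359.7, 4708 and 7253 CPM (lowest, median and highest of 12), and next highest among named classes in tenocytes, at 1502, 2091 and 3437 CPM. Fibroblasts held 726, 1277 and 1938 CPM, and all of their libraries lay below the lowest osteoblast one. Chondrocytes were far lower, at 8.53, 38.9 and 542 CPM, a fibroblast excess of 3.90 ± 0.37 on the log2 scale (SE, adjusted p = 5.42e-17). Against osteoblasts and tenocytes *Aspn* was lower in fibroblasts (-1.73 ± 0.25 and -0.82 ± 0.25, adjusted p = 4.33e-09 and 0.00556). The second of these did not pass with coarser clusters (Leiden resolution 0.5, -0.12) or without the library block (-0.82).

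In class II, *Lum*, which spaces collagen fibrils and whose protein is abundant in cornea and cartilage, was highest in osteoblasts, with 9198, 10332 and 13258 CPM (lowest, median and highest), against 1282, 1808 and 3069.9 CPM in fibroblasts and 1893, 3156 and 4404 CPM in tenocytes. The osteoblast range stood apart from both, and the other ranges overlapped. *Lum* was lower in fibroblasts than in osteoblasts by a log2 value of -2.31 ± 0.28 (SE, adjusted p = 6.33e-12). The difference from tenocytes was -0.62 (adjusted p = 0.0612, not passing, although it did in 6 of 27 alternatives). The excess over chondrocytes of 0.72 passed narrowly (adjusted p = 0.0489) and was lost on leaving out any one of the libraries labelled peak 2, peak 3, resolved 1, resolved 2, resolving 2, resolving 3, rest 2 or rest 3, with values from 0.56 to 0.77, and passed in 11 of 27 alternatives.

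*Fmod*, which shares a collagen-binding site with lumican and is required for normal tendon fibrils, was 3820.3, 5356 and 7976 CPM in tenocytes (lowest, median and highest of 12). Fibroblasts held 52.9, 163 and 336 CPM, and osteoblasts and chondrocytes stood between, at 1356 ± 340.5 and 1774 ± 337 CPM. No fibroblast library reached the lowest library of any of these 3 classes. The log2 difference was -4.93 ± 0.30 against tenocytes, -3.49 ± 0.30 against chondrocytes and -2.77 ± 0.27 against osteoblasts (SE, adjusted p = 5.64e-30, 4.23e-20 and 1.42e-16). Tenocytes, 13.7% of the cells, held 53.6% of all *Fmod* UMIs. After thinning, 85.8% of tenocytes had a UMI of *Fmod*, against 13.2% of fibroblasts and 6.23% of vascular endothelial cells, a class not known to make it.

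*Prelp*, a protein that links basement membranes to the underlying matrix, was the one member called lower in osteoblasts than in fibroblasts. Its lowest, median and highest values were 186, 299 and 456 CPM in fibroblasts and 21.6, 59.2 and 108 CPM in osteoblasts, and 752, 1094 and 1484 CPM in tenocytes and 924, 1451 and 1646 CPM in chondrocytes. Tenocyte and chondrocyte libraries lay above all fibroblast libraries. The fibroblast level was 2.42 ± 0.20 higher than that of osteoblasts on the log2 scale, -1.92 ± 0.18 against tenocytes and -2.45 ± 0.20 against chondrocytes (SE, adjusted p = 1.30e-20, 1.36e-17 and 1.97e-21). With coarser clusters (Leiden resolution 0.5) the excess over osteoblasts fell to 0.34 and did not pass.

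*Kera*, the least abundant member in fibroblasts, was a transcript of tenocytes and cluster 2. Tenocytes held 258, 359 and 984 CPM (lowest, median and highest), above every fibroblast library, which ran from 1.42 to 33.7 CPM. Osteoblasts held 6.99 ± 6.43 CPM and chondrocytes 1.66 ± 2.63 CPM. The log2 difference of fibroblasts from tenocytes was -5.41 ± 0.25 (SE, adjusted p = 3.42e-35). Tenocytes held 56.1% of all *Kera* UMIs and cluster 2 33.1%, and a *Kera* UMI was found after thinning in 22.8% of tenocytes, 1.65% of fibroblasts and 0.318% of vascular endothelial cells. The fibroblast excess over chondrocytes (2.61, adjusted p = 0.0114) passed in 24 of 27 alternatives. It was 1.48 with thinned cells (adjusted p = 0.296), 2.40 without the libraries suffixed 7 to 9 (0.0625) and 1.71 without those suffixed 4 to 9 (0.209).

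*Omd*, a keratan sulfate proteoglycan that binds osteoblasts through an integrin, was highest in osteoblasts, at 847, 1189 and 1951 CPM (lowest, median and highest). Tenocytes came next with 141, 289.8 and 543 CPM, and fibroblasts held 9.07, 16.2 and 33.3 CPM. The 3 ranges did not overlap. The log2 difference of fibroblasts was -5.89 ± 0.28 against osteoblasts, -4.11 ± 0.27 against tenocytes and -2.25 ± 0.35 against chondrocytes (SE, adjusted p = 5.00e-38, 4.47e-27 and 1.68e-08). Osteoblasts were 6.79% of the cells and held 59.4% of the *Omd* UMIs, and tenocytes held 23.8%. After thinning, 70.3% of osteoblasts, 23.1% of tenocytes, 3.71% of fibroblasts and 1.02% of vascular endothelial cells had a UMI of *Omd*.

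*Ogn*, the class III member, also called mimecan and first isolated from bone, was highest in tenocytes and osteoblasts, at 606, 1000.0 and 1423 and 397, 799 and 1161 CPM (lowest, median and highest). Fibroblasts held 195, 343 and 463 CPM, and all of their libraries stood below the lowest tenocyte one. Chondrocytes held 95.5 ± 149 CPM. The log2 difference of fibroblasts was -1.57 ± 0.21 against tenocytes, -1.05 ± 0.21 against osteoblasts and 2.15 ± 0.30 against chondrocytes (SE, adjusted p = 3.12e-10, 1.13e-05 and 8.56e-10). With coarser clusters (Leiden resolution 0.5) the first was -0.23 and did not pass.

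*Chad*, the class IV member, whose protein ties cartilage cells to collagen through an integrin, was high in cartilage and tendon and low in fibroblasts. Its lowest, median and highest values were 3071, 5909 and 7242 CPM in chondrocytes, 2057, 3159.8 and 4672 CPM in tenocytes, 84.3, 400.3 and 1176 CPM in osteoblasts and 9.46, 30.02 and 63.9 CPM in fibroblasts. Every fibroblast library was below the lowest library of the other 3 classes. The log2 difference of fibroblasts was -7.84 ± 0.39 against chondrocytes, -6.79 ± 0.37 against tenocytes and -3.72 ± 0.32 against osteoblasts (SE, adjusted p = 4.17e-37, 1.32e-33 and 2.49e-19). With clusters 2 and 15 counted as fibroblasts, that against osteoblasts was -0.66 and did not pass (adjusted p = 0.0616). Tenocytes held 43.6% of the *Chad* UMIs, cluster 15 24.6%, chondrocytes 23.0% and fibroblasts 1.88%. In fibroblasts 5.27% of thinned cells had a UMI of *Chad*, against 6.61% of vascular endothelial cells and 5.61% of perivascular cells. The fibroblast share was thus no higher than in these vessel classes, and the source of these UMIs was not tested. Tenocytes (68.2%) and chondrocytes (94.9%) were far above the fibroblast share.

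Counted over the members, fibroblasts were set against 5 classes in a model with the library as a block, and a call needed a change of more than 0.5 on the log2 scale, in either direction, with an adjusted p-value below 0.05. Of 50 contrasts, 24 were called higher in fibroblasts, 19 lower and 7 neither. Against tenocytes 8 of the 10 members were lower and 0 higher, where 11.3% of all 10737 genes tested were lower and 12.2% higher. Each of these 8 was lower in 12 of 12 libraries. Against osteoblasts 6 were lower and 1, *Prelp*, higher (all genes, 14.0% and 17.5%). Against chondrocytes 4 were lower and 5 higher (all genes, 19.4% and 27.7%). The median log2 fold change of the members was -1.75 against tenocytes, -1.39 against osteoblasts and 0.15 against chondrocytes, beside 0.04, 0.04 and 0.17 over all genes.

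**Figure D2:**
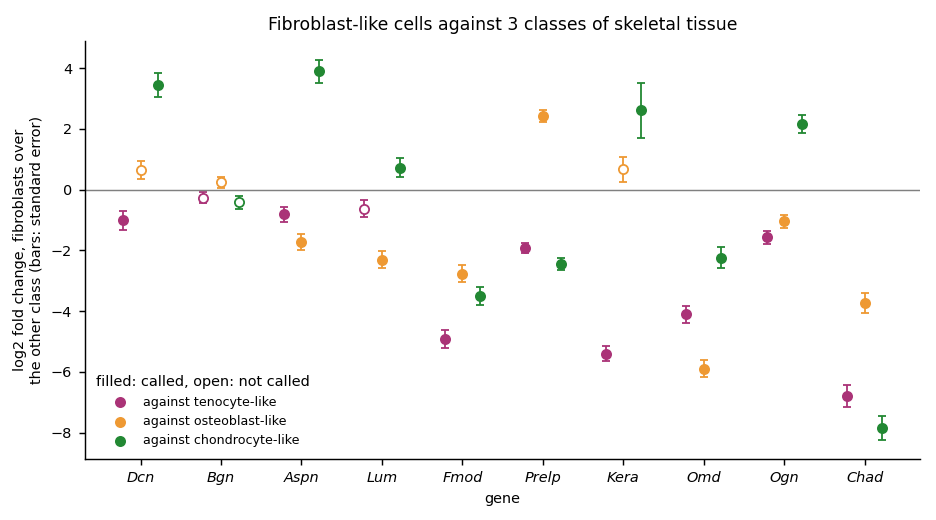
Log2 fold change of fibroblasts over tenocytes, osteoblasts and chondrocytes (vertical axis) for each member (horizontal axis), with bars for the standard error, filled points for called members and open points for the rest. *Chad*, *Fmod* and *Omd* lie below 0 against all 3 classes, *Prelp* lies above 0 against osteoblasts alone (2.42), and *Bgn* stays within -0.42 and 0.24.

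Against vessel cells the order turned round. Compared with perivascular cells 9 members were higher in fibroblasts and 0 lower (all genes, 22.3% and 16.4%). The log2 differences ran from 1.01 for *Bgn* and 1.04 for *Aspn* to 3.89 for *Lum* and 4.72 for *Dcn*. *Chad* differed by -0.02 without passing, and its level was higher in fibroblasts in 10 of 12 libraries. Perivascular *Chad* had a mean of 43.4 CPM, a median of 19.1 CPM and a highest library of 298 CPM. Compared with vascular endothelial cells 9 members were higher and 1 lower (all genes, 27.1% and 25.9%), with *Dcn* at 4.29, *Lum* at 4.14 and *Kera* at 1.56. The lower one, *Chad* (-0.76, adjusted p = 0.0359), was at 75.3 ± 82.9 CPM in endothelial cells, and fibroblasts were higher in 4 of 12 libraries. This call was lost without any one of the libraries labelled peak 3, resolved 1, resolved 2, resolving 2 or rest 3 (log2 -0.72 to -0.61), and it passed in 15 of 27 alternatives, in 1 of them, with clusters 2 and 15 counted as fibroblasts, in the other direction (2.37). The *Kera* difference from perivascular cells passed in 20 of 27, and was lost with library totals alone, with members kept in the clustering, without the library block, without resolved 2, and without suffixes 4 to 6, 7 to 9 or 4 to 9, with values from 0.70 to 1.80. That of *Fmod* from perivascular cells did not pass without suffixes 4 to 6 (0.74) or 4 to 9 (0.33). Without suffixes 4 to 9, the differences of *Fmod* and *Kera* from endothelial cells were 0.37 and 0.13 and did not pass, nor did that of *Kera* without 7 to 9 (0.98). Endothelial cells still held 1082 ± 670.0 CPM of *Dcn*, with a UMI in 42.4% of thinned cells (median 3182 UMIs per cell before thinning, against 5644 in fibroblasts), a level that free RNA in the droplets can give and whose source was not tested.

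Classes next to each other in the order of a member's level were compared within libraries by a two-sided exact permutation test of log2(CPM + 1), and 6 of 94 neighbour pairs differed after Benjamini-Hochberg adjustment over all of them. *Dcn* was higher in tenocytes than in fibroblasts, next below them, in 12 of 12 libraries (mean log2 difference 1.08 ± 0.43, SD, adjusted p = 0.0115, exact permutation test, n = 12). *Omd* was higher in osteoblasts than in tenocytes (2.00 ± 0.68), *Aspn* higher in tenocytes than in fibroblasts (0.80 ± 0.29) and *Chad* higher in tenocytes than in osteoblasts (2.94 ± 1.13), each in 12 of 12 libraries with the same adjusted p in the exact permutation test. The remaining pairs were *Bgn* in vascular over lymphatic endothelial cells and *Aspn* in perivascular cells over cluster 15. At the top of the *Chad* order, chondrocytes and cluster 15 did not differ beyond their spread (adjusted p = 0.210, exact permutation test, n = 7), nor did cluster 15 and tenocytes (0.623, n = 11). *Fmod* in tenocytes stood 1.28 above cluster 2 without passing (adjusted p = 0.0816, exact permutation test, n = 8), and below it cluster 2, cluster 15 and chondrocytes were not told apart. Leaving out 1 library in turn gave 11 to 16 pairs without rest 2, rest 3, peak 2, resolving 2 or any of the 3 libraries labelled resolved, and 5 to 7 without the other 5 libraries. A class needed 6 libraries to enter the order, and proliferating cells had 6. Leaving out 1 of these took that class out and changed which pairs were tested. Pairs with few shared libraries cannot pass easily, since 8 libraries give no p under 0.00781 before adjustment.

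Within the classes the members varied from cluster to cluster. Tenocytes fell into 3 clusters, of which cluster 3 (1535 cells) was led by *Angptl7* and *S100a5*, cluster 8 (974 cells) by *Nppc* and *Egfl6*, and cluster 18 (238 cells) by *Chodl* and *Ptx4*. *Omd* was at 685 ± 249 CPM in cluster 8 (SD, n = 12), 118 ± 58.4 CPM in cluster 3 (SD, n = 12) and 79.2 ± 56.6 CPM in cluster 18 (SD, n = 10). *Kera* ran the other way, with 1159 ± 712 CPM in cluster 18, 581 ± 327 CPM in cluster 3 and 143 ± 106 CPM in cluster 8. *Fmod* was likewise lowest in cluster 8 (2979 ± 472 CPM, against 7128 ± 1974 and 8289.9 ± 3143 CPM in clusters 3 and 18). *Lum* was lowest in cluster 18, at 696 ± 343 CPM, against 3349 ± 1019.8 CPM in cluster 3. *Ogn* was highest in cluster 8, at 1608 ± 329 CPM, and *Dcn* in cluster 3, at 37806 ± 4170.4 CPM.

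All members varied among the 8 fibroblast clusters. *Dcn* ran from 5386 ± 884 CPM in cluster 1 (led by *Cxcl5* and *Saa3*) and 7595 ± 915 CPM in the lining cluster to 24385 ± 4946 CPM in cluster 10 (led by *Ccl11*) and 27481 ± 1648 CPM in cluster 9 (led by *Inmt* and *Aldh3a1*). *Bgn* was lowest in the sublining cluster, at 1555 ± 605 CPM, and highest in cluster 1, at 5473 ± 484 CPM, while the lining cluster, also low in *Dcn*, held 2177 ± 453 CPM. The tendon and bone members stayed far under their tenocyte or osteoblast levels, with cluster means from 43.6 ± 42.3 to 540.3 ± 387 CPM for *Fmod*, 2.65 ± 2.87 to 34.2 ± 13.7 CPM for *Kera* and 4.78 ± 4.09 to 49.98 ± 27.1 CPM for *Omd*. *Lum* was highest in cluster 11 (led by *Hmcn1* and *Fbln7*), at 5059 ± 2353 CPM, and lowest in the lining cluster, at 1173 ± 418 CPM. Cluster 1 had enough cells in 6 libraries (suffixes 4 to 9), cluster 11 in 9 and cluster 22 in 3. Every other fibroblast cluster had 12. The highest *Fmod* and *Kera* means were those of cluster 22 (led by *Ifit1*). Means of clusters 1, 11 and 22 thus do not cover all the libraries of the others, and the part of the libraries in these differences was not tested. The unnamed cluster 15 held *Chad* at 5439 ± 4496 CPM, from 884 to 12275 CPM over its 11 libraries, with *Dcn* at 33646 ± 5598 CPM and *Ogn* at 91.9 ± 44.5 CPM. The unnamed cluster 2 held the highest mean *Bgn*, at 7669 ± 1146 CPM, with *Fmod* at 2537 ± 1784 CPM and *Kera* at 233 ± 191 CPM. It made up 21.5% to 31.6% of the cells of the libraries suffixed 7 to 9 and at most 1.40% of those of any other, so that most of its cells came from 3 libraries, while each of its library sums counts once in these means. Clusters were not tested against each other apart from the lining and sublining ones.

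**Figure D3:**
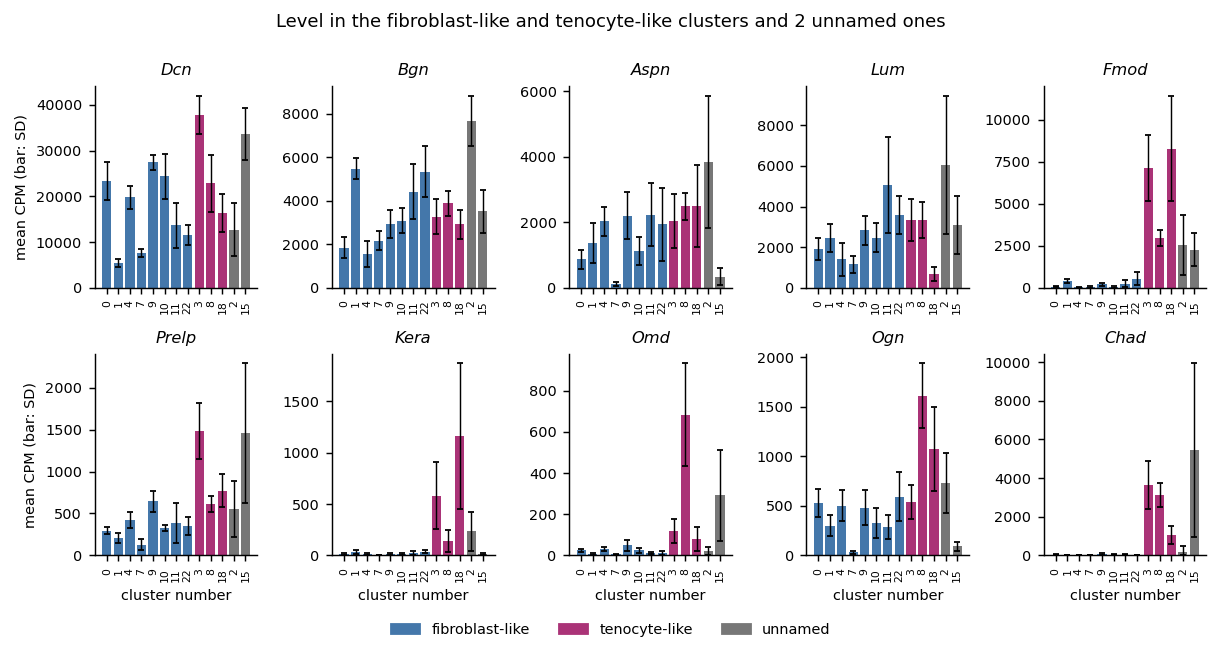
Mean level with SD (bars, vertical axes in CPM from 0) of members in each fibroblast-like, tenocyte-like and unnamed cluster (horizontal axes, cluster number). *Omd* is highest in tenocyte cluster 8, *Kera* in tenocyte cluster 18, and *Chad* is near the bottom of its axis in all fibroblast clusters, whose means do not pass 54.9 CPM.

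The synovial membrane has a lining layer at its surface, whose fibroblasts make lubricin (*Prg4*), and a sublining beneath. The lining cluster held 1095 cells, with *Clic5* in 65.4% of them and 4.36% of other cells. The sublining cluster held 1533, with *Pi16* in 85.9% and 23.2% of other cells, and is only the *Pi16*- and *Dpp4*-marked part of the sublining. Both had at least 28 cells in each of the 12 libraries. Compared with that cluster, lining cells held far less of *Aspn*, *Ogn*, *Omd* and *Prelp* and less of *Dcn*, while *Bgn* was slightly higher in the lining. Of the other fibroblast clusters, only cluster 0 (1849 CPM, led by *Ifi205*) had a lower mean *Bgn* than the lining (2177 CPM). Clusters 9 and 10, for example, held 2951 and 3091 CPM. Mean *Lum* was lower in the lining (1173 CPM) than in every other fibroblast cluster, with 2832 and 2466 CPM in clusters 9 and 10. Differences from clusters other than the sublining one were not tested.

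*Dcn* was 5702, 7877 and 8913 CPM (lowest, median and highest) in the lining and 14786, 20167 and 23338 CPM in the sublining, and the ranges did not overlap. *Aspn* was 41.6, 126 and 264 CPM in the lining and 1452, 2051 and 2693 CPM in the sublining. *Ogn* was 9.89, 22.9 and 66.8 CPM and 229.5, 574 and 722 CPM. These ranges, too, were apart, as were those of *Omd* (0 to 13.5 against 17.6 to 47.3 CPM) and *Prelp* (43.1 to 250.1 against 305 to 595 CPM). *Bgn* overlapped, with 1640.0, 2029.6 and 3284 CPM in the lining and 821, 1526 and 2714 CPM in the sublining, and was higher in the lining in 11 of 12 libraries.

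In edgeR with the library as a block, 5 of the 9 members tested were called lower in the lining and 1 higher, where 14.7% of all 5854 genes tested were lower and 12.9% higher. The log2 differences were -4.14 ± 0.21 for *Aspn*, -4.01 ± 0.19 for *Ogn*, -2.70 ± 0.24 for *Omd*, -1.79 ± 0.18 for *Prelp* and -1.41 ± 0.09 for *Dcn* (SE, adjusted p from 3.27e-14 to 2.20e-08). That of *Bgn* was 0.54 ± 0.11 (adjusted p = 3.58e-04), close to the fold limit, and it fell under that limit without the libraries labelled peak 1 (0.50), resolved 3 (0.47) or resolving 3 (0.48). Over 26 alternatives the *Bgn* difference ran from 0.11 to 0.99 and was called in 20. *Lum* (-0.11), *Fmod* (0.10) and *Chad* (-0.04) were not called, *Kera* did not pass the filter on low counts, and *Fmod* was called higher in the lining without the library labelled peak 3 (0.50). In all, *Fmod* was called in 2 of 25 alternatives, over which it ran from -0.43 to 1.37. *Lum* was called in 1 of 26, over which it ran from -0.30 to 0.57. The median cell had a UMI of 3 of the 10 members in the lining and 4 in the sublining after thinning.

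**Figure D4:**
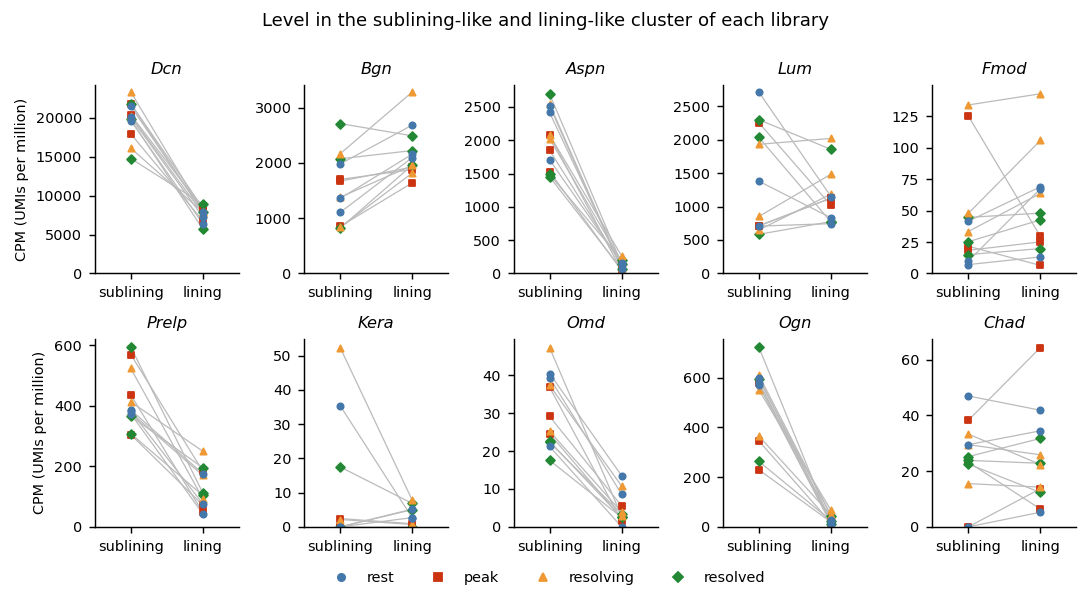
Level (CPM, vertical axes from 0) in the sublining and lining cluster of each library, with a line joining the 2 values of a library and symbols for its stage label. *Aspn*, *Ogn*, *Omd*, *Prelp* and *Dcn* fall from sublining to lining in every library, and *Bgn* rises in 11 of 12.

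The study's design asks how the cells change from rest through arthritis. In fibroblasts, *Dcn* was 20735, 8786 and 10527 CPM in the 3 libraries labelled rest, 22211, 7385 and 21742 CPM in those labelled peak, 21119, 12282 and 19595 CPM in those labelled resolving and 7779.5, 10285 and 20192 CPM in those labelled resolved. *Bgn* was 2039, 5323 and 3921 CPM at rest, 1477, 4668 and 2207 CPM at peak, 2204, 4039 and 1952 CPM in resolving and 4598, 3977 and 1844 CPM in resolved libraries. Each label held high and low libraries for both genes, and all stages overlapped. With edgeR, 0 of the 10 members were called at peak, resolving or resolved against rest, as were 0 of 11357 genes (0% in each comparison), while 78, 125 and 68 genes had an unadjusted p under 0.05, 0, 0 and 0 of them members. DESeq2 called 0 members and 0 genes as well, and with the run of suffixes as a block edgeR called 0 members and 0 genes in each comparison. Log2 fold changes of the members lay between -1.27 (*Kera*) and 0.59 (*Aspn*), with standard errors of 0.28 to 1.06. No member was called by stage within tenocytes, osteoblasts, the lining or the sublining cluster either (0% of all genes in each of these 12 comparisons, which were added after the data had been seen). A miss here does not show that the levels were equal at this spread.

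Libraries differed more by the run of their barcode suffix. *Dcn* in fibroblasts was 20735, 22211 and 21119 CPM in suffixes 1 to 3, 7779.5, 8786 and 7385 CPM in 4 to 6, 12282, 10285 and 10527 CPM in 7 to 9 and 21742, 19595 and 20192 CPM in 10 to 12. *Bgn* was 2039, 1477 and 2204 CPM, 4598, 5323 and 4668 CPM, 4039, 3977 and 3921 CPM and 2207, 1952 and 1844 CPM in the same order. The suffixes 4 to 9 were thus low in *Dcn* and high in *Bgn*, with no overlap with the others in either gene. *Kera* was 29.1 to 33.7 CPM in suffixes 7 to 9, 6.38 to 15.7 CPM in 4 to 6, and 1.42 to 3.84 and 2.56 to 6.79 CPM in 1 to 3 and 10 to 12. *Fmod* followed *Bgn*, with 232 to 336 and 207 to 287 CPM in 4 to 6 and 7 to 9 against 52.9 to 97.6 and 103 to 119.6 CPM. *Omd* followed *Dcn*, with 31.4 to 33.3 and 20.1 to 26.5 CPM in 1 to 3 and 10 to 12 against 9.76 to 11.9 and 9.07 to 12.2 CPM. An edgeR F test over the 4 runs called 8 of the 10 members, beside 53.3% of all genes tested (*Dcn* adjusted p = 1.02e-06, *Bgn* 1.14e-06), and neither *Aspn* (0.104) nor *Ogn* (0.256). No label gives these runs, and the same fibroblast sums had their nearest libraries within them. This F test is therefore no separate evidence for the grouping.

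**Figure D5:**
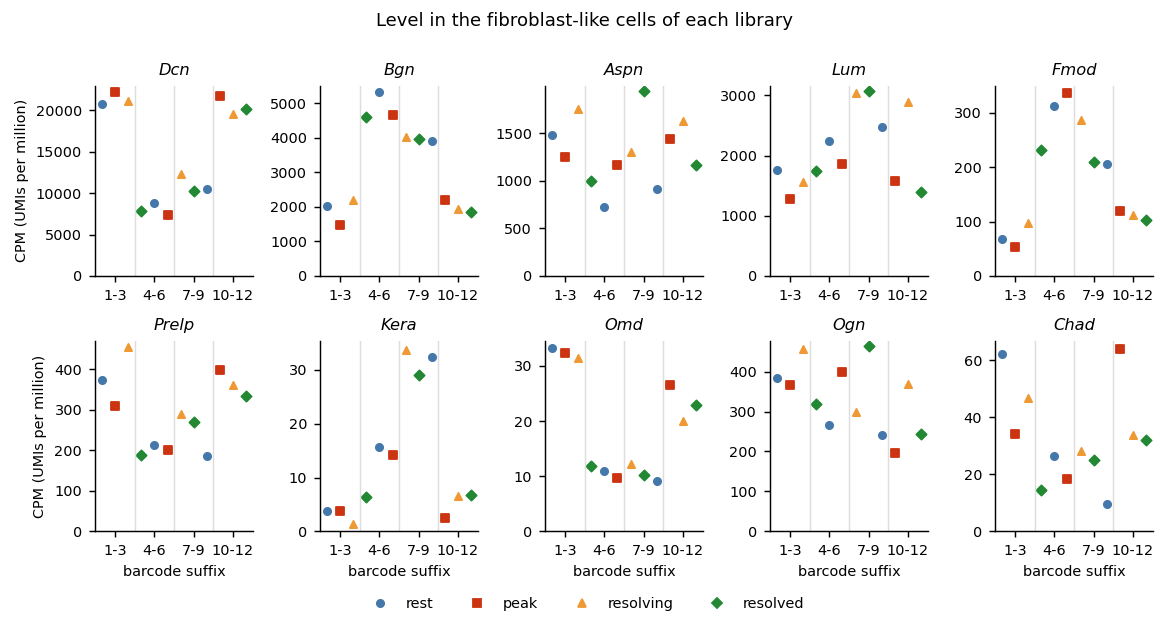
Level (CPM, vertical axes from 0) of members in the fibroblasts of each library, ordered by barcode suffix on the horizontal axes, with symbols for the stage label. *Dcn* and *Omd* are low and *Bgn* and *Fmod* high in suffixes 4 to 9, whatever the stage label.

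The makeup of the fibroblasts moved with these levels. Cluster 1, in which *Dcn* was 5386 ± 884 CPM and *Bgn* 5473 ± 484 CPM, made up 51.7% to 58.1% of the fibroblasts of suffixes 4 to 6, 15.1% to 23.0% of those of 7 to 9, and at most 0.684% in the other libraries. The sublining cluster made up 2.73% to 4.39% in 4 to 6, 7.61% to 15.3% in 7 to 9, and 20.6% to 33.2% elsewhere. The part of this makeup in the class-wide differences was not tested. The same F test was fitted within the lining and the sublining cluster, a choice made after the data had been seen, and cluster 1 was not fitted. The widest log2 difference between runs in *Dcn* was 1.38 over all fibroblasts, 0.31 in the lining (adjusted p = 0.450, edgeR) and 0.41 in the sublining cluster (0.185). In *Bgn* it was 1.42, 0.51 and 1.08. *Bgn* was called in both (adjusted p = 0.0242 and 0.00438, edgeR), as was *Lum* (0.0301 and 5.72e-08). In all, 4 of 8 members tested were called in the lining (19.7% of all genes) and 3 of 10 in the sublining (6.56%), the further ones being *Aspn* and *Prelp* in the lining and *Kera* in the sublining.

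Some markers of other cell types in the fibroblasts also moved with the runs. The 8 osteoblast markers summed to 596 to 799.8 CPM in suffixes 7 to 9 and 160.5 to 425 CPM elsewhere. Of these, *Spp1* was 459 to 690.2 CPM in 7 to 9, 136 to 336 CPM in 4 to 6 and 17.5 to 57.8 CPM in the others, while *Bglap* was 25.6 to 37.3 CPM in 7 to 9 and 6.73 to 119.9 CPM elsewhere. The 8 measured chondrocyte markers summed to 189 to 324 CPM in 4 to 6, 156 to 164 CPM in 7 to 9 and 64.3 to 184 CPM elsewhere. Among them *Acan* was 78.9 to 141, 53.6 to 63.9 and 1.06 to 4.91 CPM in that order, and *Col2a1* 9.10 to 16.5, 4.34 to 20.8 and 0.234 to 63.0 CPM. The 7 tenocyte markers summed to 1458 to 1849.6 CPM and the 7 immune markers to 2.57 to 16.03 CPM over all libraries. No marker of these 4 lists was at 0 in all 12 libraries. Cluster 2, with 33.1% of all *Kera* UMIs, lay mostly in suffixes 7 to 9, where fibroblast *Kera* was highest. The part of these in the run differences was not tested.

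Outside the fibroblasts the count of members called by run was smaller, and so was the share of all genes (53.3% in fibroblasts). In tenocytes 7 of the 10 members were called (9.19% of all genes), and *Fmod*, *Chad* and *Omd* were not (adjusted p = 0.149, 0.170 and 0.373, edgeR). Tenocyte *Kera* was 984, 759 and 828 CPM in suffixes 7 to 9 and between 258 and 469 CPM in the other 9 libraries, with no overlap. In osteoblasts 3 of 9 members tested were called, *Aspn*, *Bgn* and *Chad* (1.81% of all genes). In chondrocytes, which had enough cells in suffixes 1 to 8 alone, 2 of 9 were called, *Bgn* and *Ogn* (1.47% of all genes). Leaving out 1 library in turn moved these counts to between 4 and 7 in tenocytes (4 without peak 2 or resolved 3), 1 and 4 in osteoblasts (1 without peak 2) and 1 and 4 in chondrocytes (1 without peak 1, peak 2, resolved 1 or resolved 2, 4 without rest 2).

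Of 9 further genes of the family, 6 had enough counts for the class comparisons. *Epyc*, epiphycan, a class III proteoglycan of growth cartilage that lies beside *Kera*, was at 789 ± 164 CPM in chondrocytes, 129.7 ± 64.7 CPM in tenocytes and 26.2 ± 13.2 CPM in fibroblasts, and lower in fibroblasts than in both (log2 -5.20 and -2.33). *Chadl*, a chondroadherin-like gene, was highest in chondrocytes (90.4 ± 27.2 CPM, -3.53 in fibroblasts). *Podnl1* was highest in osteoblasts (83.2 ± 15.7 CPM, -4.36) and *Podn*, podocan, in fibroblasts (74.1 ± 33.6 CPM), which were higher in it than tenocytes (1.02), osteoblasts (2.69) and chondrocytes (5.03). *Ecm2*, the neighbour of *Aspn*, was at 430.2 ± 189 CPM in tenocytes and 180.2 ± 109 CPM in fibroblasts (log2 -1.47), and *Tsku*, tsukushi, at 12.1 ± 4.71 CPM in fibroblasts. *Optc*, *Nyx* and *Nepn* did not pass the filter, and *Nepn* reached 17.2 CPM in vascular endothelial cells and at most 0.250 CPM elsewhere. In the lining, *Ecm2* and *Podn*, the only 2 tested, were both lower (-2.19 and -2.80), where 14.7% of all genes were.

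The collagens that SLRPs bind were counted beside the members. Of 14 fibrillar and associated collagens, fibroblasts had 6 higher and 3 lower of 14 against tenocytes (all genes, 12.2% and 11.3%, median log2 -0.04), 2 and 7 of 14 against osteoblasts (17.5% and 14.0%, -0.47) and 7 and 5 of 14 against chondrocytes (27.7% and 19.4%, 1.05). *Col11a2* was lower against all 3 (-3.11, -4.20 and -10.32), *Col5a3* higher than in tenocytes (2.47) and *Col14a1*, whose protein coats fibrils, higher than in osteoblasts (4.51), and *Col2a1*, the cartilage collagen, differed by -10.98 from chondrocytes. Against perivascular cells 8 of 14 collagens were higher and 0 lower (all genes, 22.3% and 16.4%), led by *Col14a1* (3.80). Against vascular endothelial cells 12 of 14 were higher and 0 lower (27.1% and 25.9%), led by *Col3a1* (4.72). In the lining 8 of 11 collagens were lower and 1 higher (all genes, 14.7% and 12.9%, median -1.06, all genes -0.00). *Col14a1* (-3.74), *Col1a2* (-2.54) and *Col1a1* (-2.05) were among the lower ones, the same side as *Dcn* and *Aspn*. *Col14a1* was among the markers used to name the sublining cluster, *Col2a1* among those for chondrocytes and *Col3a1* among those for fibroblasts. The differences of these genes are therefore not independent of the class names.

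Enzymes that build and sulfate the glycosaminoglycan chains of proteoglycans gave 7 higher and 2 lower of 22 tested in fibroblasts against tenocytes (all genes, 12.2% and 11.3%), 3 and 5 of 22 against osteoblasts (17.5% and 14.0%) and 6 and 10 of 22 against chondrocytes (27.7% and 19.4%). *Chst2*, a keratan sulfate sulfotransferase, was higher in fibroblasts than in tenocytes (2.02), *Csgalnact1*, which starts chondroitin chains, higher than in osteoblasts (4.58), and *Chst11*, a chondroitin sulfotransferase, lower than in chondrocytes (-5.18). Against perivascular cells 14 were higher and 1, *Chst1*, lower (-2.77, all genes, 22.3% and 16.4%). Against endothelial cells 13 were higher and 4 lower (27.1% and 25.9%). In the lining 6 of 13 were higher and 0 lower (all genes, 12.9% and 14.7%, median 0.49), with *Chst2* at 5.81, *Csgalnact1* at 1.40 and *Xylt1*, which adds the first sugar to the core protein, at 1.23.

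Among receptors and growth factors that SLRPs bind, fibroblasts had 3 higher and 3 lower of 16 against tenocytes (all genes, 12.2% and 11.3%), 8 and 4 of 16 against osteoblasts (17.5% and 14.0%), 8 and 4 of 16 against chondrocytes (27.7% and 19.4%), 9 and 3 of 16 against perivascular (22.3% and 16.4%) and 10 and 1 of 16 against endothelial cells (27.1% and 25.9%). *Tgfb3*, a TGF-beta ligand, was lower than in tenocytes (-1.64), *Wisp1* lower than in osteoblasts (-2.24), and *Bmp4* higher than in chondrocytes (7.06). *Egfr*, a receptor of decorin, was higher than in osteoblasts (1.88), chondrocytes (3.89) and endothelial cells (4.51). In the lining 5 were higher and 5 lower of 13 (all genes, 12.9% and 14.7%), with *Ctgf* at 3.71 and *Bmp4* at -2.04. Of 8 proteases that cut SLRPs, 2 were higher and 2 lower in fibroblasts than in tenocytes (all genes, 12.2% and 11.3%). Against osteoblasts the counts were 3 and 3 (17.5% and 14.0%), and against chondrocytes 6 and 1 (27.7% and 19.4%). Against each of the vessel classes they were 7 and 1 (22.3% and 16.4% for perivascular, 27.1% and 25.9% for endothelial cells). *Mmp2*, 1 of these proteases, was also among the markers used to name fibroblasts. *Mmp13* was lower than in osteoblasts (-5.63), and in the lining *Htra1* was higher (1.70) and *Mmp2* and *Bmp1* lower (-1.45 and -1.43), of 6 tested. No gene of these lists was called by stage, and by run in fibroblasts 6 of 6 family genes, 15 of 22 enzymes, 13 of 14 collagens, 10 of 16 receptors and ligands and 8 of 8 proteases were, beside 53.3% of all genes.

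The genes whose levels went most closely with each member were taken over 124 sums of a class in a library and 9859 genes, by Pearson's r of log2(CPM + 1). The sums share libraries and classes, so r is a description. *Dcn* went with *Igfbp6* (0.92), *Serpinf1* (0.91) and *Hand2* (0.86), *Bgn* with *Col6a2* (0.89), *Vimp* (0.88) and *Vkorc1* (0.87), and *Aspn* with *Col3a1* (0.83), *Adamts2* (0.82) and *Col1a2* (0.82). *Lum* went with *Mmp2* (0.90), *Olfml3* (0.90) and *Smoc2* (0.89), *Fmod* with *1500015O10Rik* (0.88), *Lum* (0.83) and *Comp* (0.83), and *Prelp*, the least matched member, with *Nupr1* (0.70), *Spsb1* (0.69) and *Cd9* (0.68). *Kera* went with *Tnmd* (0.82), *Mfap4* (0.82) and *Itgbl1* (0.79), of which *Tnmd* is a marker of tendon, and *Omd* with *Dlx5* (0.86), *Dync1i1* (0.82) and *S100b* (0.82), of which *Dlx5* encodes a transcription factor of bone. *Ogn* went with *Serpinf1* (0.87), *Bicc1* (0.84) and *Ptgis* (0.82), and *Chad* with *Wif1* (0.79), *Crispld1* (0.79) and *Pla2g5* (0.78), of which *Wif1* encodes a secreted Wnt inhibitor. Among the members themselves r was highest for *Dcn* and *Lum* (0.83) and *Lum* and *Fmod* (0.83) and lowest for *Prelp* and *Aspn* (0.16).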

How the data were processed

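The 10x Genomics 3′ libraries of 12 samples had been aligned to mm10 with Cell Ranger, and the authors deposited whole-number counts (UMIs of each gene in each cell). Every deposited library had the same median of 5358 UMIs per cell, which points to an equalised depth by a step not given in the sources used here. Stages and replicate numbers came from the sample labels. The members and gene lists were chosen with earlier results of these data known, and the limits that turn markers into class names were set after clusters had been seen.

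The study's limits on genes (over 500, under 5000) and UMIs per cell (over 500, with each library's own upper limit) kept 20060 cells. Counts were scaled to 10000 per cell, and 2000 variable genes without SLRP genes, 30 principal components, 20 neighbours and Leiden resolution 1 gave 27 clusters (scanpy 1.11.5, leidenalg 0.10.2, igraph 0.11.9, numpy 2.4.6, scipy 1.17.1, pandas 2.3.3, matplotlib 3.10.9, Python 3.11.15). Class names required 4 or more markers of the class, each found in 20% or more of the cluster's cells and 1 or more higher on the log2 scale than elsewhere. Only a cluster that reached this for no other class could count as fibroblast. It needed at least 5 of 7 fibroblast markers, each found in at least 30% of its cells. No name was given where a different class had the larger number of markers among the 10 leading genes, which left cluster 2 (7 of 7 fibroblast markers, *Tnmd* among its leading genes) and cluster 15 (6 of 7, *Spp1*) unnamed. Lining and sublining clusters needed 3 markers. Scrublet marked 56 cells (0.279%), too few for a working call, and no doublets were removed from the values reported.

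UMIs were summed per library and class over at least 10 cells and tested in edgeR 4.0.16 (R 4.3.3, limma 3.58.1) with TMM factors, its filter on low counts, the two-sided quasi-likelihood test and Benjamini-Hochberg adjustment over all genes tested. The standard error was the size of the log2 fold change divided by the square root of F. The fits were run on counts simulated with a single fixed spread and no differences between libraries beyond depth and a planted change. That does not show how the tests behave at the spread of the real libraries. Neighbouring classes in the order of levels were compared with a two-sided exact permutation test (sign changes of differences of log2(CPM + 1) within a library). Shares of cells were taken after thinning each cell to 2000 UMIs, with 554 shallower cells left out. Named are all members, all measured genes of the list of further family genes, up to 3 called genes of each other list per comparison, by size of change, and the 3 genes most like each member. Positions came from GENCODE M21, and promoters from RefSeq for 8 of the 10 members.

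Replicate numbers were not taken to pair samples. Alternatives were other scalings, no filter on low counts, DESeq2 1.42.0, other limits on cells, dropping the top 6% of cells by doublet score, other clustering, thinned cells, other blocks, unnamed clusters added to the fibroblasts, 6 libraries alone and each library left out. Leaving out runs of suffixes, the tests within single clusters and other cell sets for the order of levels were added after the data had been seen. Reads of a UMI that fit several near-identical genes can be dropped by the counting.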

Additional observations from a re-analysis of the deposited data

Results flagged for a closer look

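Over 40 sets of 4 to 10 libraries of a class and member, 11 had 1 library whose gap to the nearest of the others took more of the range than Dixon's 95% limit allows. That limit flags about 1 in 20 sets of independent normal values. These levels have a floor at 0, and several sets share the same cells, so the count of 11 cannot show an excess over chance. The chondrocytes of the library labelled resolved 2 were the highest of 8 in *Dcn* (3812 CPM, next 1889.8 CPM), *Ogn* (458 CPM, next 109 CPM), *Aspn* (542 CPM, next 111 CPM) and *Kera* (7.64 CPM, next 2.59 CPM). The lymphatic endothelial cells of resolved 1 were the highest of 10 in *Dcn* (1997 CPM, next 899 CPM) and *Ogn* (99.9 CPM, next 20.2 CPM), and those of peak 3 in *Fmod* (74.5 CPM, next 39.2 CPM). Among 8 libraries of muscle-like cells, resolved 3 was the highest in *Lum* (775 CPM, next 173 CPM) and *Aspn* (394 CPM, next 91.8 CPM), resolving 3 in *Prelp* (659.6 CPM, next 407 CPM), and peak 3 in *Omd* (7.76 CPM, with all others at 0). Several of these values rest on few UMIs, since the class sums are small. *Omd* in muscle-like cells and *Kera* in the chondrocytes of resolved 2 rest on 1 UMI each.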

How the results depend on the processing

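Of 3161 values of single members under 30 alternatives, 2914 kept their direction and side of the threshold, 108 lost a call, 54 gained one, 83 that were not called changed sign, and 2 turned round: *Chad* in fibroblasts against vascular endothelial cells was 0.062 with Leiden resolution 0.5 and 2.37 with the unnamed clusters added to the fibroblasts. Leaving out each library in turn gave 22 to 25 member contrasts higher in fibroblasts, 18 to 20 lower, 5 to 5 members lower and 0 to 2 higher in the lining, 0 to 0 by stage, and 7 to 9 by run in fibroblasts, 1 to 4 in osteoblasts, 1 to 4 in chondrocytes and 4 to 7 in tenocytes, and 5 to 16 neighbour pairs. Of the members higher in the lining (1), there were 0 without upper limits per cell, with Leiden resolution 0.5 or without the library block, and 2 with members kept in the clustering or with suffixes 4 to 9 left out, the last chosen after seeing the data. Members called by run were 6 without the filter on low counts and 1 without the 6% of cells of highest doublet score in osteoblasts (3), and in chondrocytes (2) 1 with library totals alone, 6 without the filter, 4 with DESeq2 and 0 after thinning, and in tenocytes (7) 4 after thinning. Neighbour pairs (6) were 20 with Leiden resolution 0.5 and 14 with members kept in the clustering, both, like the omissions for these pairs, chosen after seeing the data. With the replicate block the stages gave 0 calls among members and among all genes, as without it. Same-numbered libraries correlated from -0.70 to 0.82 in their deviations from their stage means, over 7149 genes, and a shared number was treated as a name only. The cause of these changes was not tested, apart from fewer counts after thinning and fewer samples in the omissions, some of which also changed which neighbour pairs were tested.

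Counts over all genes moved by more than 1.5 times in these cases. After thinning, calls in fibroblasts were 1522 against tenocytes (2514 before), 2132 against osteoblasts (3383), 2468 against chondrocytes (5063), 2701 against perivascular (4157) and 3647 against endothelial cells (5685), 772 in the lining (1619), and by run 3105 in fibroblasts (6048), 383 in tenocytes (715) and 19 in chondrocytes (52). Without the filter they were 3248 in the lining and, by run, 1222 in tenocytes, 561 in osteoblasts (115) and 240 in chondrocytes. DESeq2 gave 269 by run in osteoblasts and 119 in chondrocytes. Osteoblasts gave 76 without those high-scoring cells and 213 with Leiden resolution 0.5. Leaving out 1 library gave 63 to 212 by run in osteoblasts (115), 25 to 57 in chondrocytes (52) and 458 to 685 in tenocytes (715).

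Low sums limit *Kera*, *Omd* and *Chad* in fibroblasts, where free RNA can add UMIs to cells of any class, which was not tested. Chondrocytes had enough cells in 8 libraries. With 3 libraries for each label and a spread that follows the suffixes, changes between stages of the size of their standard errors were not detectable.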
